A study of Mus musculus with 6 samples.

Results

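The stromal region of the control mouse uterus was represented by 289 spots of the 3267 in the 2 control sections, and of the 6199 in all 4 sections of the study. A spot is a barcoded area of a capture slide that binds the RNA of the tissue lying on it and can hold several cells. The stromal spots were those of cluster 8 in section CO A (101 of 1433 spots, 7.05%) and cluster 6 in section CO B (188 of 1834 spots, 10.3%), the groups that the study named stroma among the 10 that the authors' software formed in each section. They were set against all other spots of the same section, with the unique molecular identifiers (UMIs, 1 per captured RNA molecule) of each gene summed over each region. Levels are given as CPM, a gene's UMIs per 1000000 UMIs of the region, and differences as log2 ratios of stromal over other spots.

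CO denotes CD-1 female mice that were given corn oil, the vehicle, on days 1 to 5 after birth, and DES denotes mice given 1 mg/kg/day of diethylstilbestrol, a synthetic estrogen. Uteri were taken at 12 months of age, the control mice being chosen in estrus, and CD-1 is an outbred stock that carried no transgene here. Each section was a single cored frozen block from 1 mouse, and the 4 sections shared 1 slide. According to the study, the tissue of CO B had a large fold and clusters were hard to resolve in DES B, and the part of either in the results was not tested. A library of dissociated cells from the pooled uteri of 2 CO mice gave a second readout, and the DES sections entered as a comparison.

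The stroma of the endometrium is the connective tissue between the lining epithelium and the muscle of the uterine wall. Its fibroblasts lay down collagen and other matrix, carry receptors for estrogen and progesterone, and send signals to the epithelium above them. Blood vessels with their pericytes and a varying population of immune cells run through the same tissue, so RNA from all of these can be captured in a stromal spot.

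Stromal spots held 558480 UMIs in CO A and 922552 in CO B, with medians of 5510 and 4523.5 UMIs per spot against 6829 and 4945 in the other spots. Of the spot barcodes, 1009 occurred in both control sections, which is a property of the slide grid and not of shared cells. In sums over spots, fewer cells of a type and less RNA per cell cannot be told apart. The clusters were formed on the same counts that are compared here, so p-values describe the difference against the spread between sections and are not an independent test. With 2 sections, no exact test over sections alone could reach 0.05, and the p-values rest on a spread shared across genes. Where a section was left out, its treatment gave no spread between sections. Those p-values rest on the spread of the other treatment and on that shared across genes.

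The label was checked against marker genes of stroma, smooth muscle and epithelium. Muscle markers were low in the stromal cluster of both sections, with mean log2 ratios to the rest of the section of -3.40 (CO A) and -4.06 (CO B), and epithelial markers were lower as well, at -0.68 and -0.72. The stroma markers, scored without Aspg, were raised at 1.02 and 0.47. The stroma score was higher in cluster 6 of CO A (1.07) and in clusters 3 and 5 of CO B (1.01 and 0.52), which had muscle scores of 1.23, 0.71 and 2.51. It was also higher in cluster 7 of CO B, at 0.69, where muscle (-1.69) and epithelial markers (-0.87) were both low. The cluster taken as stromal in CO B thus had a lower stroma score than cluster 7, which was counted among the other spots. Clusters 7 and 10 of CO A had a stroma score above 0 with both other scores below 0 as well, so the other spots of both sections held some stroma.

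**Figure D1:**
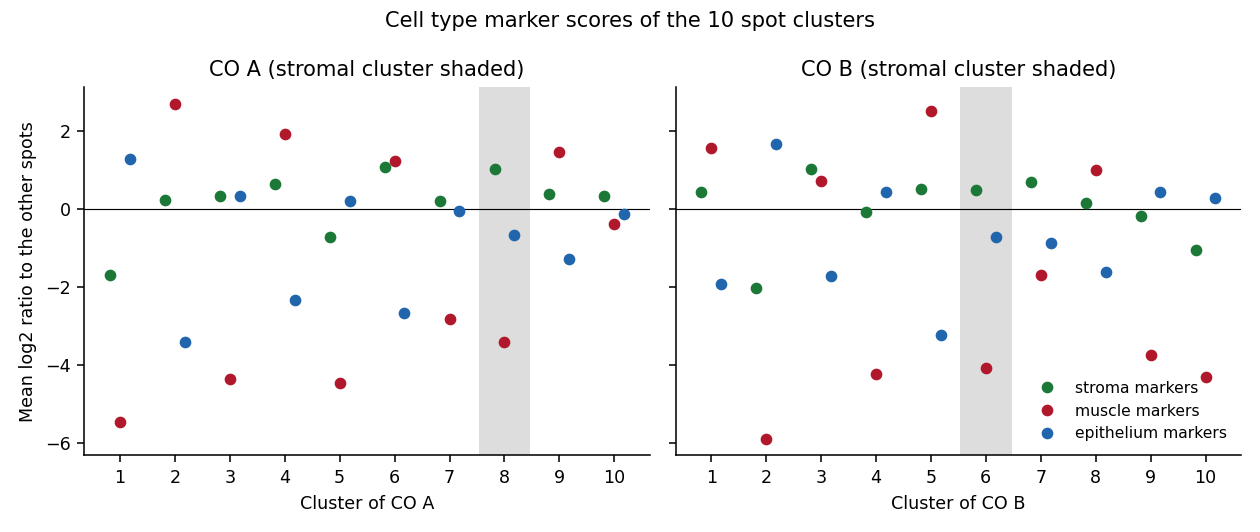
Mean log2 ratio of stroma, muscle and epithelium markers in each of the 10 clusters of CO A (left) and CO B (right) over the other spots of the section, with the stromal cluster shaded. In the shaded clusters only the stroma score lies above 0 (1.02 and 0.47).

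Of 13542 genes tested, 876 (6.47%) were higher and 745 (5.5%) were lower in stromal than in other spots at an adjusted p under 0.05 by edgeR's quasi-likelihood test. Both sections gave the same direction for 864 of the 876 and for 739 of the 745. The calls were made on both sections together, so this agreement is not a separate test. Of all genes tested, 4356 were above 0 and 4447 below 0 in both sections. The 50 genes with the largest ratio in CO A were taken among those with at least 30 stromal CPM there. Of these, 49 were above 0 in CO B and 42 were at least 2-fold higher there. Over all genes, without that minimum, the shares were 49.5% and 10.7%. In reverse, with the minimum in CO B, 46 of 50 were above 0 and 44 at least 2-fold higher in CO A. The shares over all genes, again without it, were 49.4% and 12.2%. Without CO A 952 genes were called, and without CO B 670. The DESeq2 Wald test called 686.

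**Figure D2:**
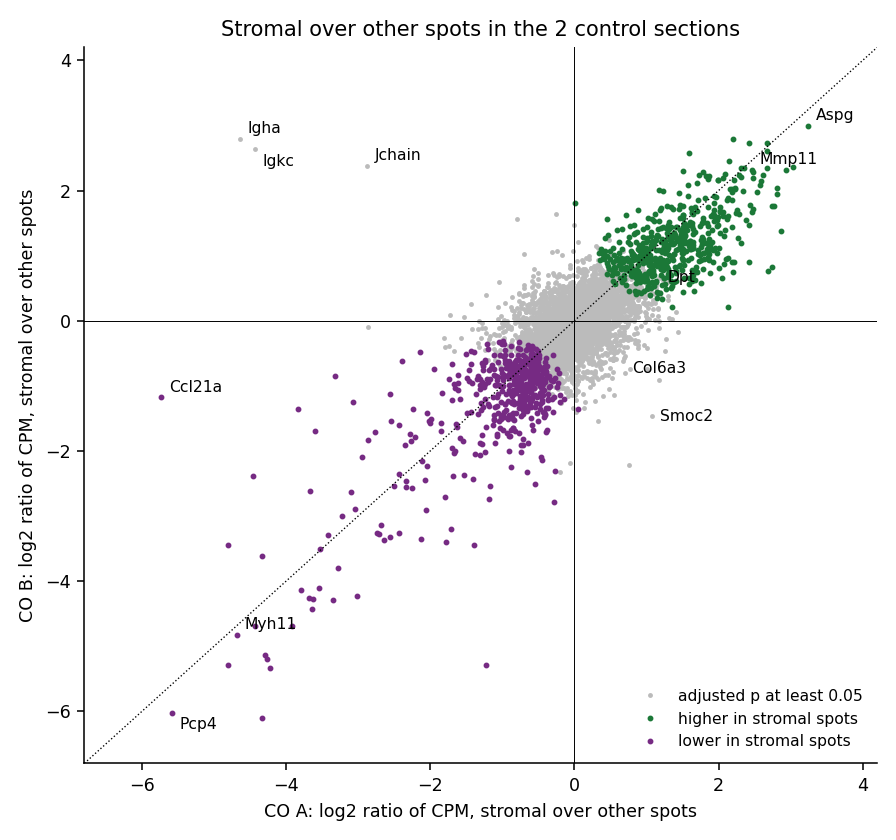
Log2 ratio of CPM in stromal over other spots in CO A (horizontal) and CO B (vertical), coloured by the call. There is 1 point for each of 5125 genes with at least 30 CPM in a region of both sections. A further 5 genes at that level had no UMI in a region and were not drawn. Genes called higher lie mostly in the upper right and genes called lower in the lower left, and 18 genes were at least 4-fold apart between the sections.

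Aspg, which encodes an asparaginase, had the largest rise of all genes that met the naming rule. It stood at 256 CPM in stromal against 27.0 CPM in other spots of CO A, and at 698 against 87.9 CPM in CO B. Stromal spots were thus 9.47-fold and 7.94-fold higher, the counting interval of the log2 ratio being 2.95 to 3.53 and 2.84 to 3.14. The fitted log2 ratio over the 2 CO sections was 3.05 ± 0.20 (SE from the edgeR fit of all 4 sections, adjusted p = 1.21e-12). The gene lies on chromosome 12 at 112106679-112127559, plus strand (GRCm38).

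The stromal cluster had the highest Aspg level of the 10 clusters in both sections, but not alone. In CO A cluster 10 followed at 229 CPM, and in CO B cluster 9 at 687 CPM against 698 CPM. After each spot was thinned to 2000 UMIs, 37.0% of 100 stromal spots of CO A held an Aspg UMI (exact 95% Clopper-Pearson interval 27.6 to 47.2%, counting error only), against 6.29% of 1209 other spots (4.98 to 7.81%). In CO B the shares were 69.1% of 181 (61.8 to 75.7%) against 15% of 1429 (13.2 to 17%). In all 8 stromal spots with fewer UMIs were left out. Before thinning these shares were 69.3% and 18.2% in CO A, and 88.3% and 28.1% in CO B. Aspg was thus detected in more stromal than other spots of both sections, and its level differed between the sections in either region.

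Foxl2, a forkhead transcription factor of the uterine stroma (chromosome 9, 98955288-98958543, plus strand), stood at 64.5 against 12.5 CPM in CO A and at 23.9 against 8.80 CPM in CO B. The fitted log2 ratio was 1.89 ± 0.32 (adjusted p = 8.87e-05). Its level was highest in the stromal cluster in CO A and second in CO B, behind cluster 7 at 30.5 CPM. Dpt, which encodes the collagen-binding matrix protein dermatopontin, stood at 317 against 139 CPM and at 368 against 206 CPM, a fitted log2 ratio of 0.95 ± 0.18 (adjusted p = 0.00044). Both genes were higher in stromal spots of either section, but Dpt was only the third highest among the 10 clusters of each section. It stood at 475 and 414 CPM in clusters 6 and 10 of CO A, and at 632 and 502 CPM in clusters 3 and 7 of CO B. Without CO A neither passed, Foxl2 at an adjusted p of 0.069 and Dpt at 0.073.

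Vcan and Col6a3, the other stroma markers of the rule, did not go the same way in both sections. Vcan, which encodes the proteoglycan versican, stood at 71.6 against 17.6 CPM in CO A and at 13.0 against 13.4 CPM in CO B. Its call (fitted log2 ratio 1.15, adjusted p = 0.037) rested on CO A, since without it the ratio was -0.10 (adjusted p = 0.97). Col6a3, a chain of the microfibrillar collagen VI, had log2 ratios of 0.69 (CO A) and -0.57 (CO B), and its fitted ratio of 0.02 missed the threshold (adjusted p = 0.98). Its partner chains Col6a1 and Col6a2, chosen after their values were seen, were higher in both sections, with fitted log2 ratios of 1.27 and 1.42. Of the 11 stroma markers tested, 9 were higher and none was lower, with a median log2 ratio of 0.95 against -0.03 over all genes; 3 were higher without CO A and 6 without CO B.

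The next largest rises included genes known from fibroblasts, vessels and lymphocytes. The agouti gene (symbol a), whose product is a secreted antagonist of melanocortin signalling, stood at 265 against 32.4 CPM in CO A and at 230 against 44.5 CPM in CO B (log2 ratio 2.64). Mmp11, a matrix metalloproteinase known from stromal cells, stood at 322 against 58.3 CPM and at 863 against 173 CPM (2.34), and the stromal cluster was the highest of the 10 in both sections. Lsamp, a cell adhesion protein, stood at 60.9 against 13.3 CPM and at 87.8 against 12.7 CPM (2.47). The agouti gene, Mmp11 and Lsamp were higher in both sections by at least 4-fold. Aox3, an aldehyde oxidase, stood at 53.7 against 7.03 CPM in CO A and at 292 against 58.4 CPM in CO B (2.47). Aplnr, the apelin receptor of blood vessels, had 2.35, and Gimap5, a GTPase of lymphocytes and vessels, had 2.54. Il2rb, a chain of the interleukin-2 receptor, and Gzma, a granzyme of killer lymphocytes, had 2.65 and 2.45. These genes passed also without either section. The remaining gene among the 10 largest rises is known by a clone name alone and had a log2 ratio of 2.59.

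The genes lower in stromal spots were led by smooth muscle. Acta2, smooth muscle actin, stood at 235 against 4505 CPM in CO A and at 128 against 4706 CPM in CO B, a fitted log2 ratio of -4.78 ± 0.25 (adjusted p = 1.55e-14). Myh11, the smooth muscle myosin heavy chain, stood at 75.2 against 1938 CPM and at 69.4 against 1962 CPM (-4.81). All 10 smooth muscle genes of the list were lower, with a median of -4.36, and all 10 were lower with either section left out. The calponin gene Cnn1 (-5.11), the actin gene Actg2 (-4.82), Tagln (-4.79) and the calmodulin-binding Pcp4 (-5.85) were of the same order. Sh3bgr had no stromal UMI in CO A, which puts it at least 21.9-fold lower there against a floor of 3 counts per region, and Synm, an intermediate filament gene, had none in CO B (at least 25.1-fold lower). Optc had none in CO A (at least 8.32-fold lower) and 1.08 against 45.5 CPM in CO B, and Nptx2 had a fitted ratio of -5.21.

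Epithelial genes were lower by less. Epcam, an epithelial adhesion molecule, stood at 254 against 461 CPM in CO A and at 86.7 against 271 CPM in CO B (log2 ratio -1.28, adjusted p = 0.00014), and Cdh1, E-cadherin, had -1.76. Of 10 epithelial genes 5 were lower and none was higher, with a median of -0.66, and 3 were lower without CO A. Krt18, a keratin, had -0.92 but did not pass without CO A (adjusted p = 0.062). After thinning, 44.0% of stromal spots in CO A held an Epcam UMI (34.1 to 54.3%) against 41.6% of other spots (38.8 to 44.4%), and in CO B 14.4% (9.60 to 20.3%) against 28.3% (25.9 to 30.7%). The stromal spots of CO A thus held an Epcam UMI about as often as the rest of that section, and those of CO B less often. For Myh11 the shares were 10% against 49.9% in CO A and 11% against 58.8% in CO B. Unthinned, they were 62.4% against 55.3% and 30.3% against 42.2% for Epcam, and 26.7% against 63.4% and 27.1% against 67% for Myh11.

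Because the other spots mix muscle and epithelium, each was also taken alone. Muscle-rich spots numbered 580 (CO A) and 654 (CO B), and epithelium-rich spots 240 and 607. Both were set by scores of the stroma, muscle and epithelium markers, so ratios of these markers over them are not independent of that choice. Of 11667 genes, 1207 (10.3%) were higher and 1154 (9.89%) lower in stromal than in muscle-rich spots, and 1751 (15%) higher and 1404 (12%) lower than in epithelium-rich spots. Without CO A the calls fell to 1191 against muscle and 1733 against epithelium, and without CO B to 1345 and 1535. Of the 876 genes higher than in other spots, 300 were higher than in both regions, 448 than in epithelium-rich spots only and 70 than in muscle-rich spots only. A further 23 passed against neither, 35 were not in this fit, and 0 were lower than in either region.

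**Figure D3:**
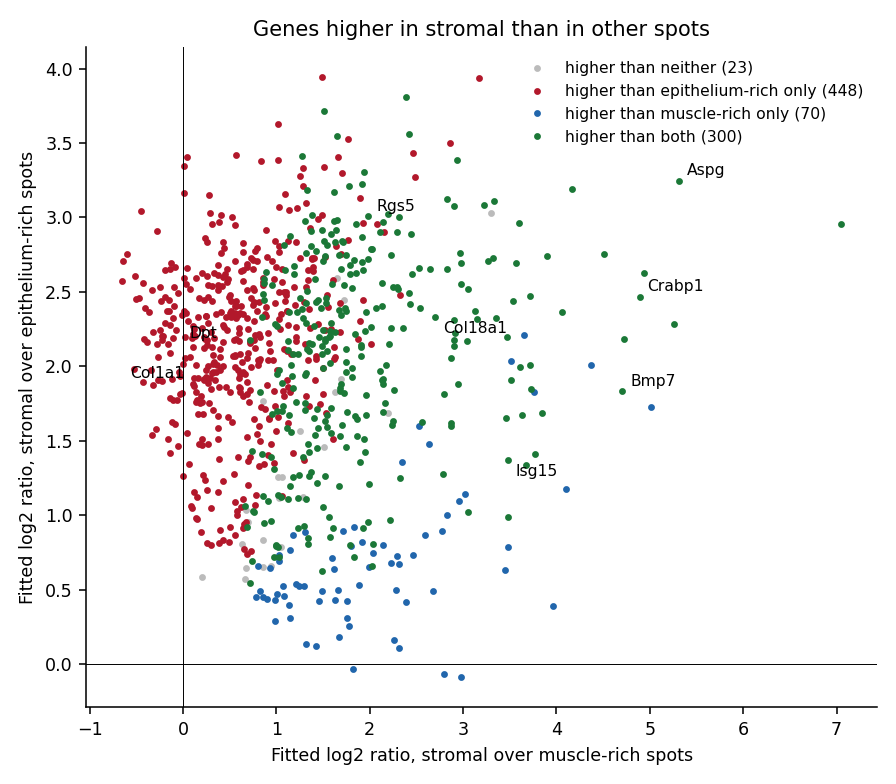
Genes higher in stromal than in other spots, by fitted log2 ratio over muscle-rich spots (horizontal) and over epithelium-rich spots (vertical), coloured by the region they exceeded at an adjusted p under 0.05. The 300 genes above both regions lie to the upper right, and the 448 above epithelium-rich spots only gather near 0 on the horizontal axis.

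Aspg exceeded both regions, with log2 ratios of 5.31 over muscle-rich and 3.25 over epithelium-rich spots. Its level was 3.12 and 21.6 CPM in muscle-rich spots of CO A and CO B, and 15 and 106 CPM in epithelium-rich spots. The epithelium-rich region of CO B joined clusters 2, 4 and 9, at 46.2, 264 and 687 CPM. Cluster 9 was thus close to the stromal cluster of that section (698 CPM). Mmp11 (2.83 and 2.65) and the microfibril gene Mfap5 (3.05 and 2.17) also exceeded both. Of the 11 stroma markers, 3 were higher and 1 lower than in muscle-rich spots (median 0.24), the lower one being Lum (-1.53). All 11 were higher than in epithelium-rich spots (median 2.06). Dpt did not differ detectably from muscle-rich spots (0.24, adjusted p = 0.49) and was higher than in epithelium-rich ones (2.34, adjusted p = 0.00012). Foxl2 was higher than in either (2.21 and 2.15), though without CO A these had adjusted p-values of 0.22 and 0.12. Aspg, Mmp11 and Mfap5 therefore exceeded both regions as summed, whereas for Dpt this was shown over epithelium-rich spots alone. Foxl2 and Dpt, unlike Aspg, Mmp11 and Mfap5, were in the stroma score that helped to set the regions. Their ratios are thus not independent of that choice.

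**Figure D4:**
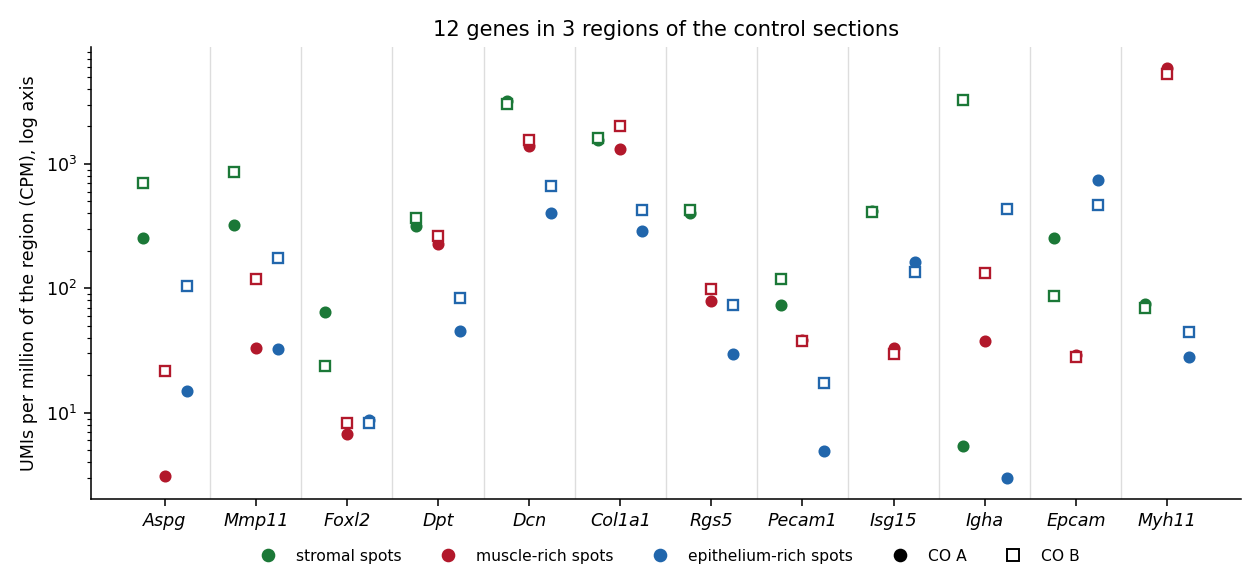
Level in CPM (log axis) of 12 genes in stromal, muscle-rich and epithelium-rich spots of CO A (filled circles) and CO B (open squares). Aspg, Mmp11, Foxl2, Rgs5 and Isg15 were highest in stromal spots of both sections, Myh11 in muscle-rich and Epcam in epithelium-rich spots. Stromal Igha was 5.37 CPM in CO A and 3265 CPM in CO B. Foxl2, Dpt, Dcn, Col1a1, Myh11 and Epcam were in the marker scores that set the muscle-rich and epithelium-rich regions.

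Among matrix genes, the fibrillar collagens, which form the tension-bearing fibres, had 6 of 10 members higher and none lower, with a median log2 ratio of 0.89. Here and in the lists below, counts over other spots stand beside 6.47% of all genes higher and 5.5% lower. Col1a1, a chain of collagen I, stood at 1565 against 770.5 CPM in CO A and at 1606 against 1112 CPM in CO B (0.72). Col5a1, which sets fibre width, had 0.98, and Col27a1 had 1.72. Against muscle-rich spots 1 of 8 fibrillar collagens was higher (median -0.12), beside 10.3% of all genes. Against epithelium-rich spots 7 of 8 were (median 1.96), beside 15%. The list's median was thus near 0 against muscle-rich spots and above 0 against epithelium-rich ones. Without CO A 1 of the 10 passed and without CO B 2, and the adjusted p-values without CO A were 0.32 for Col1a1, 0.055 for Col5a1 and 0.053 for Col27a1, the last 0.062 without CO B.

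Of the 26 other collagens tested, 9 were higher and none was lower (median 0.96). Col18a1, the basement membrane collagen that yields endostatin, stood at 788 against 185 CPM in CO A and at 1118 against 234 CPM in CO B (log2 ratio 2.12), and it was higher than in muscle-rich (2.70) and epithelium-rich spots (2.33). Col7a1, the anchoring fibril collagen, had 1.46. Of 19 collagen processing enzymes 5 were higher, among them the crosslinking Lox (1.07) and the propeptidase Adamts14 (2.33), which without CO A had adjusted p-values of 0.25 and 0.061, and 2 of the 19 passed with either section left out. Adamts14 had like log2 ratios in CO A (2.34) and CO B (2.45), whereas Lox had 1.59 and 0.66. Both of these collagen groups thus held genes higher in stromal spots of both sections.

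The small leucine-rich proteoglycans, which bind collagen fibres, did not move together. Dcn, decorin, stood at 3230 against 1036 CPM and at 3038 against 1318 CPM (log2 ratio 1.37), whereas Prelp (-2.70) and Aspn (-1.89) were lower, Aspn with an adjusted p of 0.0504 without CO A. Lum, lumican, chosen after its values were seen, had -0.31 (adjusted p = 0.30). Of 12 members 6 were lower and 1 higher than in muscle-rich spots (median -1.64), whereas 6 were higher and 0 lower than in epithelium-rich spots (median 2.12). In the elastic fibre and matricellular list 11 of 37 were higher and 5 lower (6 and 4 without CO B, 8 and 3 without CO A), with Mfap5 at 754 against 162 CPM and 660 against 148 CPM (2.14) and Fbln2, fibulin 2, at 1.48. Nov, a matricellular growth regulator also called CCN3, had 1.93, and Smoc1 (-2.57) and Tnc, tenascin C (-2.22), were lower. The call for Nov was lost without CO B (adjusted p = 0.84) and that for Tnc without CO A (0.12).

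Laminins and nidogens, the frame of basement membranes, split 4 higher and 5 lower of 13, or 3 and 3 without CO A and 1 and 2 without CO B. Lama2, the laminin chain of muscle and mesenchyme, had 1.35. Matrix metalloproteinases split 4 higher and 2 lower of 13 (2 and 3 without CO A, 2 and 1 without CO B), Mmp2 at 1.24 and Mmp17 at -3.15 beside Mmp11. Of 4 metalloproteinase inhibitors 3 were higher (1 without either section), with Timp3 at 0.89 and the membrane-anchored Reck at 1.61. The calls for Timp3 without CO A (adjusted p = 0.23) and for Reck without CO B (0.063) did not hold.

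Among transcription factors, 6 of 8 Hox genes of the Mullerian tract, which pattern the uterus along its length, were higher and none was lower, with a median log2 ratio of 0.98. Hoxd9 stood at 106 against 37.6 CPM in CO A and at 130 against 51.0 CPM in CO B (1.36). Hoxa11, needed for stromal growth and implantation, stood at 55.5 against 25.1 CPM and at 52.0 against 27.2 CPM (0.98), with adjusted p-values of 0.18 when either section was left out. Over muscle-rich spots none of 7 Hox genes was higher and 1 was lower (median -0.03), and over epithelium-rich spots all 7 were higher. Without CO A 4 Hox genes were called, without CO B 1, and with DESeq2 2, not counting Hoxa11 (adjusted p = 0.098).

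Of 23 other uterine stromal transcription factors 9 were higher and 2 lower (median 0.74), with 4 higher without CO A and none lower without CO B. Twist2, a mesenchymal factor, stood at 111 against 26.5 CPM and at 134 against 29.3 CPM (2.08), and exceeded muscle-rich (1.80) and epithelium-rich spots (2.53). Osr1, a factor of urogenital mesenchyme, stood at 149 against 30.1 CPM in CO A and at 41.2 against 18 CPM in CO B (1.76), with an adjusted p of 0.061 without CO A. Twist2 and Osr1 were thus higher in both sections, Osr1 more so in CO A.

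None of 6 steroid hormone receptors passed in either direction with edgeR or DESeq2, and 0 did at an unadjusted p under 0.05, with a median of 0.21. Esr1, estrogen receptor alpha, stood at 295 against 266 CPM in CO A and at 205 against 267 CPM in CO B, a fitted log2 ratio of -0.17 ± 0.19 (adjusted p = 0.67). Pgr, the progesterone receptor, stood at 118 against 82.6 CPM and at 44.4 against 36.3 CPM, 0.36 ± 0.22 (adjusted p = 0.34). Both were named after their values were seen. After thinning, 42.0% of stromal against 40.1% of other spots held an Esr1 UMI in CO A, and 34.8% against 40.5% in CO B (unthinned 77.2% against 77.3%, and 55.9% against 65.2%). A difference in either receptor from all other spots was thus not shown. Over epithelium-rich spots 1 of the 4 receptors fitted was higher and 0 were lower (median 0.80), and Pgr had a log2 ratio of 1.11 (adjusted p = 0.063).

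Signalling genes were ordered by ligand, inhibitor and target. Of 10 Wnt ligands 3 were higher and none lower, and 1 was higher without CO A. Wnt5a, a ligand of the non-canonical branch known from uterine mesenchyme, stood at 276 against 76.7 CPM in CO A and at 120 against 43.7 CPM in CO B (log2 ratio 1.61). Wnt16 had 2.95 but only 6.50 stromal CPM in CO B, and Wnt6 2.35 at under 10 stromal CPM in both sections; without CO A their adjusted p-values were 0.47 and 0.12, and that of Wnt6 was 0.76 without CO B. The antagonists Sfrp2 (2.27) and Dkk3 (2.04) were higher among 9, Dkk3 at 205 against 45.2 CPM in CO B, and Sfrp2 had an adjusted p of 0.064 without CO B. Of 20 R-spondins, Wnt receptors and targets 2 were higher and 3 lower (median -0.23; 2 and 1 without CO B, 1 and 2 without CO A). Axin2, a feedback target of canonical Wnt signalling, stood at 80.6 against 19.3 CPM and at 47.7 against 14.9 CPM (1.82), whereas Rspo3, a Wnt amplifier, was lower (-3.66), with no stromal UMI in CO A (at least 3.02-fold lower there).

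Of 24 genes of the BMP and TGF-beta pathway 7 were higher and none lower (median 0.35). Bmp7, a ligand, stood at 80.6 against 14.6 CPM in CO A and at 52.0 against 16.4 CPM in CO B (2.0). Nbl1, a secreted BMP antagonist, stood at 442 against 212 CPM and at 1090 against 442 CPM (1.13). The ligand Gdf10 (1.61) passed with both sections, and without CO A had an adjusted p of 0.32. Ligands and antagonists of this pathway were therefore both among the higher genes; 2 of the 24 were higher without CO A and 6 without CO B.

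The insulin-like growth factor axis split 4 higher and 1 lower of 9, all of them binding proteins. Igfbp7 stood at 3552 against 926 CPM in CO A and at 3605 against 1112 CPM in CO B (1.77), Igfbp3 had 1.71, and Igfbp2 stood at 7.16 against 73.1 CPM and at 9.76 against 191 CPM (-4.06). Of 14 ligands and receptors of the FGF, HGF and PDGF families 4 were higher and 3 lower (1 lower without CO B). Fgf10, a mesenchymal ligand for epithelium, had 14.3 against 3.01 CPM and 22.8 against 2.87 CPM (2.62, adjusted p 0.35 without CO B), and Pdgfb, a vessel-derived ligand for pericytes, had 1.54. Of 9 hedgehog pathway genes 2 were higher and 2 lower (median 0.05; 1 and 1 without CO B). The target Gli1 (1.82) was higher and Gas1, a co-receptor, was lower (-1.39).

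Retinoic acid genes split 4 higher and 1 lower of 14. Crabp1, a retinoic acid binding protein, stood at 260 against 40.1 CPM in CO A and at 26.0 against 5.44 CPM in CO B (2.50), so its ratio was similar while its level differed between the sections. Aldh1a2, the enzyme that makes retinoic acid in mesenchyme, stood at 1026 against 222 CPM and at 164 against 87.1 CPM (1.55). Both were higher than in muscle-rich spots (4.89 and 3.67). Over epithelium-rich spots they had 2.46 and 1.34, with adjusted p-values of 0.10 and 0.86 without CO A. Rbp4, a retinol carrier, had 1.98 but 0.92 as adjusted p without CO B, and Rdh10, which makes retinal, was lower (-1.24). In the prostaglandin list 1 of 15 was higher and 3 lower, against 6.47% and 5.5% of all genes. Ptgis, the prostacyclin synthase, stood at 8.95 against 112 CPM and 8.67 against 187 CPM (-4.19). Ptges, a prostaglandin E synthase, had 1.06, and only 0.28 without CO A.

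Most endothelial and pericyte genes tested, but no lymphatic ones, were higher in stromal spots of both sections. Of 12 endothelial genes 9 were higher and none was lower, with a median log2 ratio of 1.52, and 8 were higher when either section was left out. Esam, an endothelial adhesion molecule, stood at 138 against 29.3 CPM in CO A and at 162 against 39.2 CPM in CO B (2.08). Pecam1, CD31 of endothelial junctions, stood at 73.4 against 23.9 CPM and at 119 against 35.8 CPM (1.63), and Tie1 and Cdh5, further vessel genes, had 2.04 and 1.72. Of 8 pericyte genes 5 were higher and 1 lower (median 1.51). Rgs5, a pericyte regulator of G-protein signalling, stood at 405 against 81.9 CPM and at 425 against 91.8 CPM (2.21), and Higd1b, Abcc9 and Pdgfrb, further pericyte markers, had 2.32, 1.95 and 1.72. The lower one was Mcam, an adhesion molecule of vessel walls, at -1.27 in CO A and -1.32 in CO B (fitted -1.35), and Cldn5, an endothelial junction gene, had -0.50 (adjusted p = 0.47). Rgs5 exceeded muscle-rich (1.98) and epithelium-rich spots (3.01), while Pecam1 had 1.03 over muscle-rich spots (adjusted p = 0.058). Over muscle-rich spots 5 of 12 endothelial genes were higher and 1 lower (median 0.89), beside 10.3% and 9.89% of all genes. Of the 8 pericyte genes 5 were higher and 2 lower there (median 1.41). Over epithelium-rich spots all 12 and all 8 were higher (medians 2.83 and 2.67), beside 15% of all genes.

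Immune genes of several kinds were higher in stromal spots. Of 16 genes of T and natural killer cells 11 were higher and none lower (median 2.28), 8 without CO A and 4 without CO B. Il2rb stood at 41.2 against 6.45 CPM in CO A and at 37.9 against 5.74 CPM in CO B, and Gzma at 51.9 against 8.12 CPM and 40.1 against 7.91 CPM. Nkg7 (2.71), Prf1, perforin (2.58), Gzmb (2.47) and the chemokine gene Ccl5 (2.41) belong to the same killer cell set. Prf1 and Gzmb had adjusted p-values of 0.083 and 0.13 without CO B. All 11 called members were higher in both sections, the highest stromal level among them being 61.8 CPM.

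Of 17 macrophage and dendritic cell genes 9 were higher and none lower (median 1.16), and 5 were higher without CO B. Tyrobp, a signalling adaptor of myeloid cells, stood at 217 against 76.6 CPM in CO A and at 420 against 124 CPM in CO B (1.59), Fcer1g, a receptor chain, had 1.74, Aif1 had 1.77, and C1qb, a complement chain made by macrophages, had 1.44. Of 9 genes of MHC class II, which present antigen, 4 were higher: Cd74 stood at 449 against 156 CPM and at 667 against 237 CPM (1.46), and H2-Aa and H2-Ab1 had 1.39 and 1.31. The number of MHC class II genes called was 4 without CO A and 4 without CO B. Complement genes split 9 higher and 3 lower of 17 (4 and 2 without CO B), C2 at 1.66 and the inhibitor Cfi at -1.80. Chemokines split 8 higher and 5 lower of 20 (6 and 1 without CO A), Ccl7, which draws monocytes, at 168 against 23.8 CPM in CO A and 21.7 against 7.81 CPM in CO B (2.29), and Cxcl10 at 2.71 with an adjusted p of 0.11 without CO A. The mast cell gene Cma1 was lower (-3.17, adjusted p 0.39 without CO B).

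**Figure D5:**
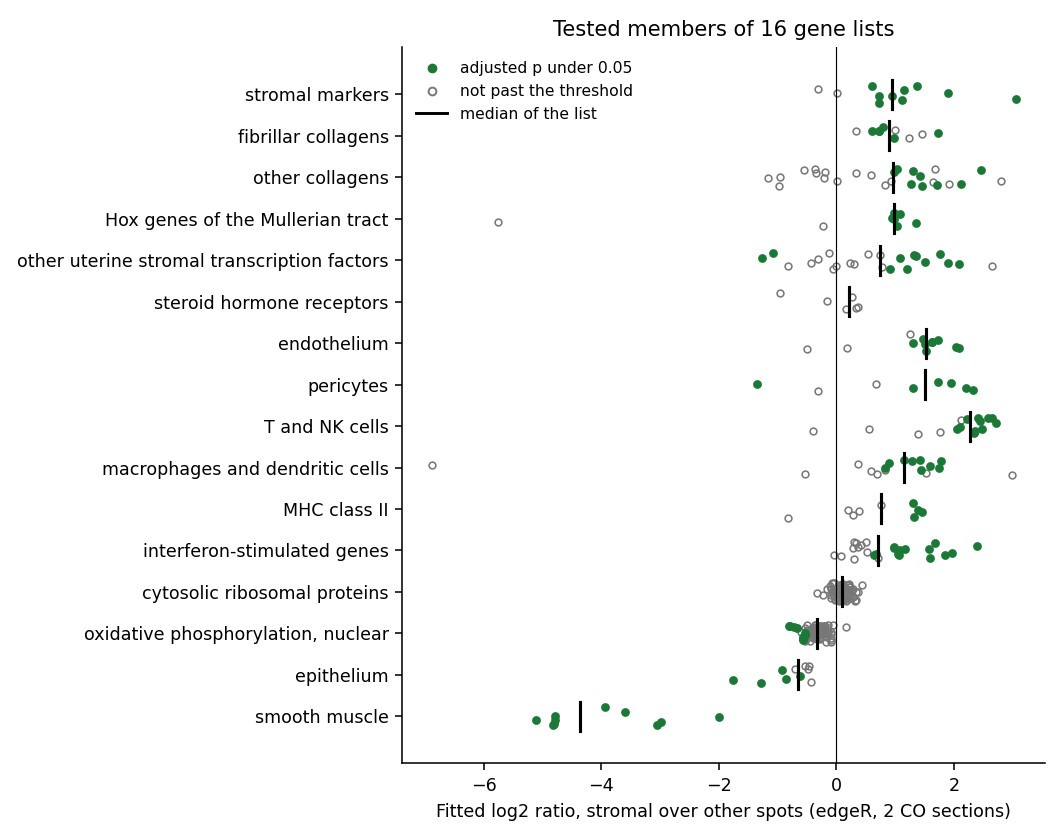
Fitted log2 ratio of stromal over other spots for each tested member of 16 gene lists, filled where the adjusted p was under 0.05, with the median of each list as a bar. Smooth muscle lies lowest (median -4.36), T and NK cell genes highest (2.28), and ribosomal protein genes close to 0 (0.10).

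Interferon-stimulated genes, the antiviral response set, had 14 of 25 members higher and none lower, with a median log2 ratio of 0.72. Isg15, a ubiquitin-like protein of that response, stood at 421 against 130 CPM in CO A and at 411 against 95.2 CPM in CO B (1.85). Ifit3 stood at 75.2 against 22.6 CPM and at 106 against 22.4 CPM (1.96), although reads could be divided with a near-identical neighbouring copy. Ifit2 had 2.40 and Rsad2, viperin, stood at 21.5 against 7.37 CPM and at 32.5 against 9.0 CPM (1.67), with an adjusted p of 0.36 without CO B. Over muscle-rich spots 24 of 25 were higher (median 2.33), against 10.3% of all genes. Over epithelium-rich spots 8 were (median 0.17), against 15%. The list's ratios were thus larger over muscle-rich than over epithelium-rich spots. Epithelial genes were also higher over muscle-rich spots, 9 of 10 (median 1.91). The part of epithelial RNA in the interferon ratios was not tested. The number of list members called was 12 without CO A, 6 without CO B and 10 with DESeq2.

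The promoters of these genes can carry the interferon-stimulated response element, searched here as GAAA followed after any 2 bases by GAAA, on both strands, in the 250 bases before and 50 after each start in RefSeq (GRCm38.p6), overlapping matches included. It was found in 1131 of 32851 promoters (3.44%) and in 11 of the 21 listed genes with a promoter (52.4%). Among those it was in 5 of 11 higher in stromal spots (45.5%) and in 6 of 10 that did not pass (60%), so the letters did not separate the genes by their call. The 3 stretches shown are from genes whose values are given above, each 5′ to 3′ on the gene's strand with the matches in capitals: Isg15 at chr4:156200860-156200911 (minus strand), Ifit3 at chr19:34583358-34583431 (plus strand) and Rsad2 at chr12:26456548-26456587 (minus strand).
Isg15: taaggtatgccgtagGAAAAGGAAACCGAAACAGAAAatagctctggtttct
Ifit3: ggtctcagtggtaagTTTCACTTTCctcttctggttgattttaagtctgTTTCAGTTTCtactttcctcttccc
Rsad2: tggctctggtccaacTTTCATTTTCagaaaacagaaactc
Isg15 held 3 overlapping matches, and in Ifit3 (2 matches) and Rsad2 (1 match) they read on the other strand.

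Plasma cell genes had the widest gaps between the sections among 5125 genes with at least 30 CPM in a region of both and UMIs in every region. A further 5 genes at that level had no UMI in a region, so their gap could not be ranked. Igha, the heavy chain of immunoglobulin A, stood at 5.37 against 134 CPM in CO A and at 3265 against 471 CPM in CO B, log2 ratios of -4.64 and 2.79. Igkc, the kappa light chain, stood at 8.95 against 194 CPM and at 1571 against 252 CPM, and Jchain, which joins immunoglobulin A, at 5.37 against 39.3 CPM and 413 against 79.7 CPM. Stromal spots were therefore below the rest of CO A and above the rest of CO B, and none of these genes passed (Igha 0.59, adjusted p = 0.69). Among the other spots of CO A, cluster 7, which held some stroma by its scores, had the highest Igha level (2513 CPM). It was second in Igkc (2292 CPM) behind the muscle-rich cluster 9 (2531 CPM). In CO B the stromal cluster was behind clusters 7 and 9 for each of these genes, with Igha at 3665 and 4664 CPM there. The immunoglobulin share of a stromal spot's UMIs had a median of 0 and a highest value of 0.10% in CO A, and a median of 0.060% and a highest value of 11.4% in CO B. After thinning, 2% of stromal spots in CO A and 51.4% in CO B held an Igha UMI (0.243 to 7.04%, and 43.9 to 58.9%), against 10.3% and 30% of other spots; unthinned these were 1.98%, 64.9%, 17.9% and 48.1%. Iglc2, Iglc3 and Mzb1 were called, but each had fewer than 2 CPM in stromal spots of CO A and none passed without CO B (adjusted p 0.59, 0.80 and 0.66). Immunoglobulin genes share near-identical stretches, so their counts may be divided among copies.

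Of these 5125 genes, 4 had opposite directions of at least 2-fold in each section, namely Igha, Igkc, Jchain and Smoc2. Smoc2, a matricellular protein, stood at 406 against 192 CPM in CO A and at 128 against 351 CPM in CO B. Adcy5, an adenylate cyclase, had log2 ratios of 0.75 and -2.21, and Map1b, a microtubule protein, -0.28 and -2.79. Tnni2, a troponin, had -1.23 and -5.29 and Hbb-bs, a globin with a near-identical copy, -0.20 and -2.33. Ccl21a, a chemokine of lymphatic vessels with near-identical copies, had -5.74 and -1.18, and Gpsm2 -2.87 and -0.09. Without CO B, Tnni2 (adjusted p = 0.068) and Map1b (0.80) were not called.

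A readout that the spot clusters did not use was the cell type in which each gene was highest among 9 types of the dissociated CO cells. The 20134 CO cells that carried no cell type in the authors' table and the 22 labelled Stmn1-hi were not used, and doublets had been removed by the authors. Of the 876 genes higher in stromal spots, 853 had such a type. It was stromal cells for 240 (28.1%, against 7.62% of 11440 genes), endothelial cells for 198 (23.2% against 18.1%), myeloid cells for 126 (14.8% against 12.8%), pericytes for 97 (11.4% against 14.1%), and lymphocytes for 70 (8.21% against 5.8%). It was epithelial cells for 1 gene and myocytes for 0. Of 706 genes lower in stromal spots it was epithelial cells for 296 (41.9% against 13.95% of all genes), myocytes for 212 (30% against 7.65%) and stromal cells for 4 (0.567%). Of the 300 genes above both muscle-rich and epithelium-rich spots, stromal cells were highest for 92 (30.9%) and endothelial cells for 77 (25.8%). The cells came from 1 library, so these shares have no replicate.

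Foxl2 was highest in stromal cells, at 174 CPM over 1326 cells (exact Poisson interval 166 to 181 CPM). So were the stroma markers Dpt (265 CPM), Vcan (208 CPM), Col6a3 (2025 CPM) and Col1a1 (4182 CPM). The stroma markers Dcn and Lum were highest in mesothelial cells, at 17670 and 3330 CPM against 8859 and 1065 CPM in stromal cells. Aspg was at 31.4 CPM in stromal cells and at 36.6 CPM in the cells that the authors labelled Ctla2a, the counting interval in stromal cells being 28.3 to 34.8 CPM. Crabp1 and Aldh1a2 were highest in stromal cells, Rgs5 in pericytes, Esam and Isg15 in endothelial cells, Tyrobp in myeloid cells and Il2rb in lymphocytes. Of the types given above, the share of stromal cells lay furthest above that over all genes, and the shares of the vessel and immune types lay nearer to it on either side.

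Among lists that describe the state of cells, some genes of energy metabolism and some immediate early genes were lower in stromal spots. None of 20 cell cycle genes passed (median 0.25, with -0.44 in CO A and 0.69 in CO B; 2 were higher without CO A), and none of 81 cytosolic ribosomal protein genes did (median 0.10). At an unadjusted edgeR p under 0.05 there were 4 of the former and 4 of the latter, and DESeq2 called 0 in both lists. Of 76 nuclear genes of oxidative phosphorylation 10 were lower and none higher (median -0.33), with 63 below 0 in both sections. Against muscle-rich spots 44 were lower (median -0.71), beside 9.89% of all genes. Against epithelium-rich spots 7 were lower and 1 higher (median -0.23), beside 12% and 15%. Uqcrb, a subunit of complex III, stood at 367 against 563 CPM and at 180 against 337 CPM (-0.81). Of 11 mitochondrial genome genes 3 were lower, mt-Co1 at -0.72 and mt-Nd3 at -1.08, and of 18 glycolysis genes 3 were, Eno1 at -0.80. The mitochondrial list had medians of -1.07 over muscle-rich and 0.49 over epithelium-rich spots. Among 17 immediate early genes, which can rise while tissue is handled, 3 were lower and none higher, Klf4 at -0.88. Without CO B the calls for Uqcrb (adjusted p = 0.098), mt-Co1 (0.076) and Klf4 (0.31) did not hold, nor without CO A that for Eno1 (0.12). With the stromal region taken as the 15% of spots with the highest marker score, mt-Nd3 stood at 0.082 and was not called. The 10 oxidative phosphorylation calls fell to 2 without CO A and 1 without CO B, the 3 glycolysis calls to 0 and 1, the 3 mitochondrial ones to 2 and 1, and the 3 immediate early ones to 2 and 0. DESeq2 called 2 oxidative phosphorylation, 1 glycolysis, 2 mitochondrial and 0 immediate early genes.

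The stromal difference was then set against that of the DES sections, whose stromal clusters held 343 spots. The DES minus CO difference of the log2 ratio passed for 456 genes, 350 (2.58%) above 0 and 106 (0.783%) below 0, and for 202 genes with DESeq2 (176 above and 26 below 0). The number below 0 was 75 without CO A, 55 without CO B, 216 without DES A and 82 without DES B, and the number above 0 was 273 to 430. The stromal cluster of the DES sections held more muscle markers, with scores of -0.31 in DES A and 1.27 in DES B against -3.40 and -4.06 in the control sections. All 10 smooth muscle genes had a higher ratio in DES (median difference 4.83). Acta2 stood at 1381 against 1234 CPM in DES A and at 3424 against 1369 CPM in DES B, a difference of 5.61, and Pcp4 (5.69), Cnn1 (5.53), Jph2 (5.43) and Tagln (5.38) followed. The part of the muscle content of these clusters in the other differences was not tested.

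Among the genes whose ratio of stromal over other spots was lower in DES than in CO were myeloid and interferon genes. Of macrophage and dendritic cell genes 5 had a lower ratio in DES, and of interferon-stimulated genes 5 (median difference -1.18). Without CO B these were 2 and 3, without DES B 5 and 2, and with DESeq2 4 and 1. Ccl6, a myeloid chemokine, stood at 48.4 against 16 CPM in CO A and 183 against 30.8 CPM in CO B, but at 69.9 against 233 CPM in DES A and 54.9 against 272 CPM in DES B, a difference of -4.03. Its level in the other spots was thus higher in the DES than in the CO sections. A lower ratio is not by itself a lower stromal level. Tyrobp (-1.39), Fcer1g (-1.44), Cd74 (-1.20) and Isg15 (-1.74) had lower ratios, and so had Spp1 (-2.47), Iigp1 (-2.42), Lrmp (-2.30) and Gpnmb (-2.30). Of these, Fcer1g (adjusted p = 0.054), Tyrobp (0.070), Lrmp (0.88) and Gpnmb (0.17) did not pass without CO B, and Cd74 (0.35) and Iigp1 (0.17) not without DES B. With any 1 of the 4 sections left out, the difference ran from -3.91 to -1.55 for Spp1 and from -3.29 to -1.25 for Lrmp. Stromal markers had 5 members with a higher ratio in DES and none with a lower one, among them Col6a3 (1.66). For Aspg the difference was -0.70 (adjusted p = 0.33), its ratio being 4.15-fold in DES A and 5.85-fold in DES B, and for Foxl2 it was -0.03 (adjusted p = 0.997).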

How the data were processed

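Spatial counts came from 10x Visium sections of 2 CO and 2 DES uteri, and a count table of dissociated cells came from the Chromium platform. The authors deposited raw UMI counts per gene and spot or cell, made per the labels with Space Ranger 1.2.2 and Cell Ranger 3.0.1 on mm10, with their spot clusters and cell types. Groups were taken from the labels, and the cluster that is stromal from the study's text. UMIs were summed per section and region. edgeR 4.0.16 (R 4.3.3; TMM scaling, filterByExpr, glmQLFit and glmQLFTest, section as block, stromal effects separate for CO and DES) gave log2 ratios, and p-values were Benjamini-Hochberg adjusted over all genes tested, with a threshold of 0.05. The fit held all 4 sections, which share the spread. The SE of a fitted ratio was its absolute value divided by the square root of the test's F value. It thus rests on that spread and not on the 2 CO sections alone. A cluster was muscle-rich or epithelium-rich where that marker score was the highest of 3 and above 0.3; scores used CPM + 10. Genes were named by these rules: the stroma markers, the 10 largest rises and falls with at least 30 CPM in both sections, the 5 widest section gaps each way, the leading called members of 47 gene lists, and the 5 largest DES minus CO differences each way. Members and lists were chosen with earlier results of these data known. On simulated counts for the stromal comparison (13249 genes), 67 of 100 genes changed 2-fold and 99 of 100 changed 4-fold were recovered, with 3.49% false calls. The changed genes had an average level of at least 30 CPM, and the simulated regions did not depend on the counts. These rates therefore do not carry over to genes at lower levels or to clusters formed on the counts. Sections came from separate mice. Intervals are 95% and cover counting error only, since a spot's UMIs share cells. Alternatives were DESeq2 1.42.0, relative log size factors, no filter on low counts, each section left out, no section block, a stromal region made of the 15% of spots with the highest marker score, CO sections alone, another cluster score minimum and counts without immunoglobulin genes.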

Additional observations from a re-analysis of the deposited data

Results flagged for a closer look

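The stromal difference of the DES sections departed from that of the control sections in 456 genes by the test of the difference itself. Among the genes described above, the ratio of stromal over other spots was higher in DES by 5.69 on the log2 scale for Pcp4, 5.61 for Acta2, 5.53 for Cnn1, 5.43 for Jph2, 5.38 for Tagln and 1.66 for Col6a3. It was lower in DES for Ccl6 (-4.03), Spp1 (-2.47), Iigp1 (-2.42), Lrmp (-2.30), Gpnmb (-2.30), Isg15 (-1.74), Fcer1g (-1.44), Tyrobp (-1.39) and Cd74 (-1.20). For Pcp4 the ratio was -1.61 in DES A and 1.01 in DES B, so the DES sections did not share a direction. The muscle score of the stromal cluster also differed between them, at -0.31 and 1.27, and its part in these values was not tested.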

How the results depend on the processing

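In at least 1 comparison each, counts of calls moved by over 1.5 times with the section block, DESeq2 and the sections. Without the section block the calls fell to 137 against other spots, 1394 against muscle-rich spots, 1792 against epithelium-rich spots and 1 for the DES minus CO difference. DESeq2 gave 686 against other spots and 202 for the DES difference. Leaving out 1 CO section gave 670 to 952, 1191 to 1345 and 1535 to 1733 calls in the 3 control comparisons. Of the 876 genes higher than in other spots, 435 were also called by DESeq2, 442 without CO A, 337 without CO B and 868 with the CO sections alone. Without CO B the median of all genes moved to -0.16.

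Values that changed direction were few. For Foxl2 the DES minus CO difference was 0.0038 with DESeq2, 0.013 with the top 15% of spots and 0.015 without DES A, and ran from -0.34 to 0.50 with 1 CO section left out. In the comparison with other spots, Col6a3 was at -0.0068 without the filter, -0.0020 with CO sections alone and -0.034 without immunoglobulin genes. DESeq2 gave -0.85 for Igha, -0.86 for Igkc and -0.14 for Jchain. With the top 15% of spots Ccl21a was at 0.23, mt-Nd3 at 0.082 and Lum at 0.55. In that comparison the ranges with 1 CO section left out were -0.10 to 1.87 for Vcan, -0.62 to 0.54 for Col6a3, -4.79 to 2.74 for Igha, -4.59 to 2.59 for Igkc, -3.02 to 2.32 for Jchain, -6.41 to 2.66 for Iglc2, -6.02 to 2.44 for Mzb1, -1.51 to 0.93 for Smoc2, -2.26 to 0.60 for Adcy5, -0.40 to 1.59 for Spp1, -0.018 to 1.64 for Lrmp and -0.43 to 0.0016 for Esr1. The cause was not tested.

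Without thinning, 39 of 40 shares of spots with a UMI left their interval. Of 134 named genes compared with other spots, 134 kept direction and call under relative log size factors and 51 without the section block. With DESeq2, 116 of the 132 that had an adjusted p did. Calls lost with it were those of Vcan, Rsad2, Iglc2, Mzb1, Hoxa11, Tnni2, Map1b, Ccl21a, Klf4, Iigp1, Cma1, Ptges and Wt1 (adjusted p 0.065 to 0.94), and for the DES difference those of Cd74 (0.11) and Iigp1 (0.094). Crabp1 lost its call over epithelium-rich spots (0.19). Among the lists whose calls moved by over 1.5 times with it, chemokines had 7 higher and 1 lower, elastic fibre and matricellular genes 7 and 3, other uterine stromal transcription factors 7 and 0, prostaglandin synthesis and receptors 0 and 2, R-spondins, Wnt receptors and targets 2 and 1, adipocytes 0 and 1, and mast cells and glandular epithelium 0 and 0. No pairing of CO with DES sections was possible because the letters A and B name separate mice. Stromal and other spots of the same section were paired through the section block. With 1 mouse per section and clusters formed on the same counts, the number of sections limits these comparisons.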

Other observations

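Some genes of mast cells and adipocytes were lower in stromal spots of the control sections. Of 4 mast cell genes 2 were lower, though 1 of the 4 was higher and 1 lower without CO A. Of 4 adipocyte genes 2 were lower (median log2 ratio -2.54), and none passed without CO B. Of 8 mesothelial genes 1 was higher and none lower (the higher one was Wt1, at a log2 ratio of 0.90, which passed neither without CO A nor without CO B, and 4 had no stromal UMI in either section), and of 6 lymphatic endothelial genes 1 was lower. Lpo, the lactoperoxidase gene listed with glandular epithelium, had no UMI in the stromal spots of either section, against 24.6 CPM in the other spots of CO A and 0.099 CPM in those of CO B, and it was not called without CO A (adjusted p = 0.95). No gene of nerve or of blood cells passed with edgeR or DESeq2 (1 and 0 at an unadjusted edgeR p under 0.05), with medians of -0.49 over 4 and -0.88 over 5 genes.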
